A study of Sus scrofa with 6 samples.

Results

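The platelet-derived growth factor (PDGF) family was examined in cultured pig testis cells by listing 4 ligand genes, PDGFA, PDGFB, PDGFC and PDGFD, and 2 receptor genes, PDGFRA and PDGFRB. Members were taken by gene symbol and not by a cut on their values, from a table of 29884 genes. The list was chosen with earlier results of these data known. A row was found for 5 of the 6 listed genes, and PDGFB was not analysed here. The study measured RNA by sequencing in 6 libraries of Sus scrofa cells that the labels describe as primitive spermatogonia from testis, early germ cells of the testis that give rise to sperm. The treated group (RA, 3 libraries) received all-trans-retinoic acid at 2 umol/L, a vitamin A derivative known for its part in the entry of spermatogonia into meiosis. The control group (3 libraries) received the solvent, 0.1% ethanol. The labels give no animal age, duration of treatment or culture origin, so the p-values cover only how far these libraries vary, and that variation may be technical.

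PDGFs are secreted dimers that bring together a pair of receptor chains on the target cell, which then phosphorylate each other and recruit signalling proteins. The receptor encoded by PDGFRA binds A, B and C chains, and the one encoded by PDGFRB binds B and D chains. PDGFA and PDGFB are cut inside the cell by furin-like proteases, whereas PDGFC and PDGFD are secreted in a latent form and are activated by proteases outside the cell. In the mouse testis, PDGFA and PDGFRA are known for their part in forming Leydig cells, and the receptors are found in interstitial and peritubular cells.

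In RA, a receptor gene fell and a ligand gene rose. PDGFRA fell to 0.545 of its control level and PDGFD rose 1.82-fold, while PDGFRB, PDGFA and PDGFC did not pass the test. The 5 tested genes thus held 1 called higher and 1 called lower, beside 13.9% of all 14567 genes tested that were called higher and 12.0% that were called lower. In either direction, 25.9% of all genes were called (limma on log2(FPKM + 1), two-sided, Benjamini-Hochberg adjusted p under 0.05). On whole reads recovered from the same values, edgeR and DESeq2 called these 2 genes as well, beside 25.1% and 30.5% of all genes. FPKM values are fragments per length of gene and size of library, so levels can be compared between genes. With 5 genes, a count of 2 is not read as a departure from that background. These are transcript levels of whole cultures, in which fewer cells of a type and less RNA per cell cannot be told apart.

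PDGFRA encodes the alpha receptor. Its level was 42.1 FPKM in control replicate 1, 42.7 in replicate 2 and 46.0 in replicate 3. In RA, the replicates in the same order were at 24.9, 22.1 and 24.2 FPKM. Every RA library lay below every control library, and the gap between the groups was wider than the spread within either. The mean was 43.6 ± 2.12 FPKM in control libraries and 23.7 ± 1.46 FPKM in RA libraries. Such values are mean ± SD over the n = 3 libraries of a group throughout. The log2 change was -0.85 ± 0.071 (SE, limma adjusted p = 0.000176), on the log2(FPKM + 1) scale as are all log2 changes of single genes here. In the authors' deposited table PDGFRA has a log2 fold change of -0.85 and an FDR of 1.77e-13. Of all genes tested, 332 (2.28%) were called lower by at least as much.

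PDGFRB encodes the beta receptor. In replicate order, its level was 14.2, 14.0 and 14.3 FPKM in control. In RA the 3 levels were 15.2, 13.1 and 14.0 FPKM. The groups overlapped, with the highest and the lowest value both in RA. The log2 change was -0.01, with a 95% interval from -0.18 to 0.17 (limma adjusted p = 0.944). That interval does not overlap the interval of PDGFRA, which ran from -1.01 to -0.69.

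PDGFD encodes the D chain, a ligand of the beta receptor. The control replicates were at 11.9, 13.0 and 14.2 FPKM. The RA replicates were at 25.7, 18.9 and 26.6 FPKM. The groups did not overlap, and RA replicate 2 was the lowest RA library. The log2 change was 0.81 ± 0.13 (SE, limma adjusted p = 0.00419), and 0.96 without RA replicate 2. PDGFD is the other family gene in the authors' deposited table, with a log2 fold change of 0.89 and an FDR of 6.40e-07. A called rise at least as large was seen in 275 genes (1.89% of those tested).

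PDGFA encodes the A chain, a ligand of the alpha receptor. Control replicates held 11.1, 10.4 and 10.3 FPKM, and RA replicates held 13.2, 12.1 and 12.1 FPKM. Every RA library was above every control library, but by little. The log2 change was 0.22, with a 95% interval from 0.04 to 0.39 (limma adjusted p = 0.0712, and 0.0415 without RA replicate 2).

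PDGFC encodes the C chain, which also binds the alpha receptor. Levels were 4.52, 4.53 and 4.76 FPKM across the control replicates and 4.13, 3.42 and 3.62 FPKM across the RA replicates. All RA libraries were below all control libraries, again by a margin close to the spread within RA. The log2 change was -0.25, with a 95% interval from -0.47 to -0.03 (limma adjusted p = 0.0923). Groups thus did not overlap for 4 of the 5 genes, beside 48.0% of all genes tested.

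**Figure D1:**
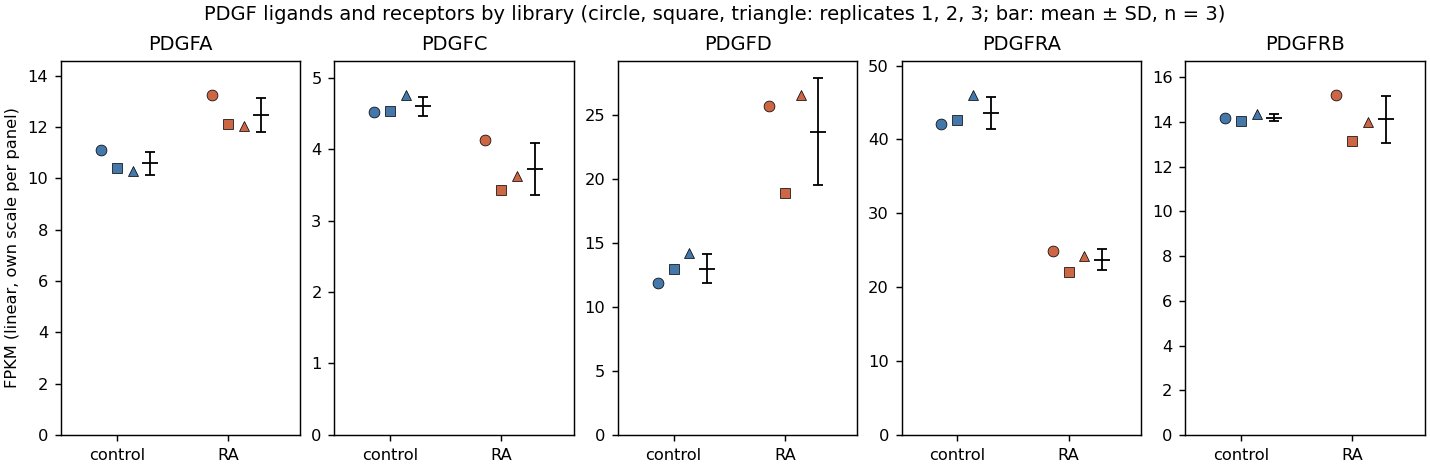
FPKM of each PDGF gene in the 6 libraries, on a linear axis from 0 with its own scale in each panel. Points are libraries and bars show mean ± SD (n = 3); PDGFRA drops from 43.6 to 23.7 and PDGFD goes from 13.0 to 23.7, while PDGFRB stays at 14.2 and 14.1.

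PDGFRA rested on 9781 to 21228 reads per library, and PDGFC, the gene with the lowest level, on 1254 to 1960 in RA. PDGFD in RA rested on 5782 reads in replicate 2, 7097 in replicate 3 and 9408 in replicate 1. Library totals behind the FPKM values ran from 62084199 to 87520891 reads. The row DDI1, on the opposite strand inside the span of PDGFD, had at most 4 reads in a library.

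**Figure D2:**
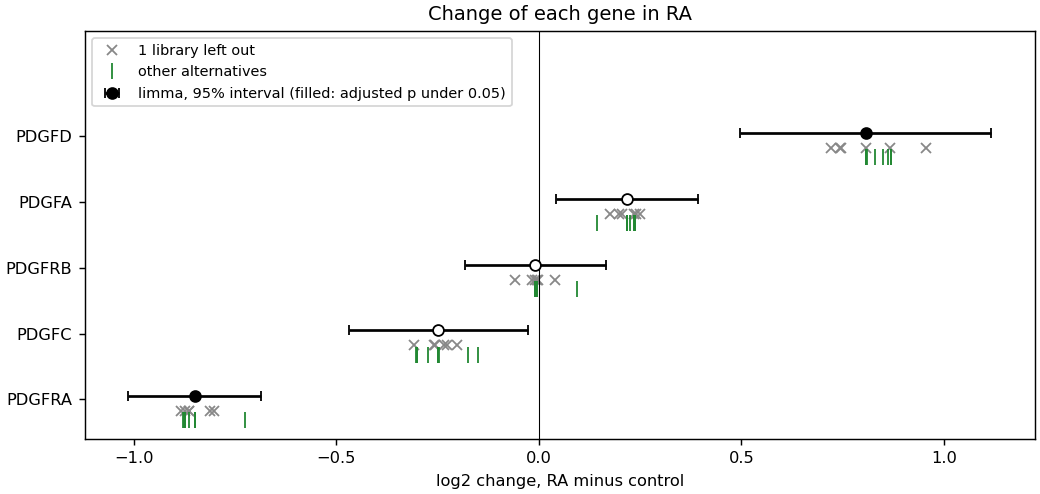
Log2 change of each PDGF gene in RA against control, with the limma estimate and its 95% interval (circles), the estimate with 1 library left out (crosses) and under the other alternatives (ticks). PDGFRA stays between -0.88 and -0.73 and PDGFD between 0.72 and 0.96, and the values of PDGFRB lie on both sides of 0.

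The order of levels within the family differed between the groups. In all 3 control libraries PDGFRA was highest, followed by PDGFRB, PDGFD, PDGFA and PDGFC. PDGFRB and PDGFD were close in control, and their ranges overlapped, from 14.0 to 14.3 FPKM for PDGFRB and from 11.9 to 14.2 FPKM for PDGFD. In RA, PDGFD was highest in replicates 1 and 3 and PDGFRA in replicate 2, so these 2 genes did not differ beyond their spread. The ranges of PDGFRB and PDGFA also overlapped in RA, where PDGFRB was lowest at 13.1 FPKM and PDGFA highest at 13.2. PDGFC was lowest in every library.

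Ratios taken within a library do not depend on how libraries were scaled. The log2 ratio of PDGFRA to PDGFRB was 1.57, 1.61 and 1.68 across the control replicates and 0.71, 0.75 and 0.79 across the RA replicates. The alpha receptor transcript was thus 3.07 times as abundant per length as the beta receptor transcript in control and 1.68 times as abundant in RA. The mean difference in log2 ratio was -0.87 (exact permutation test, two-sided, p = 0.1, which is the smallest value that 3 against 3 libraries can give). PDGFRA made up 75.4 ± 0.735% of the summed receptor FPKM in control and 62.7 ± 0.620% in RA.

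Each analysed ligand was also set against a receptor that its homodimer binds. PDGFD relative to PDGFRB went from a mean log2 ratio of -0.13 ± 0.12 to 0.74 ± 0.20, a difference of 0.86. PDGFA relative to PDGFRA went from -2.04 ± 0.12 to -0.93 ± 0.071, a difference of 1.11. PDGFC relative to PDGFRA went from -3.24 ± 0.028 to -2.67 ± 0.076, a difference of 0.57, although PDGFC itself was not called. The groups did not overlap in any of the 4 ratios, and each had the smallest possible exact permutation p of 0.1, also after adjustment over the 4. The design cannot give a smaller value. Each of the 4 pairs holds PDGFRA or PDGFD, the genes already called, so this separation is not read as further support. How many ratios of other genes would not overlap was not computed.

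**Figure D3:**
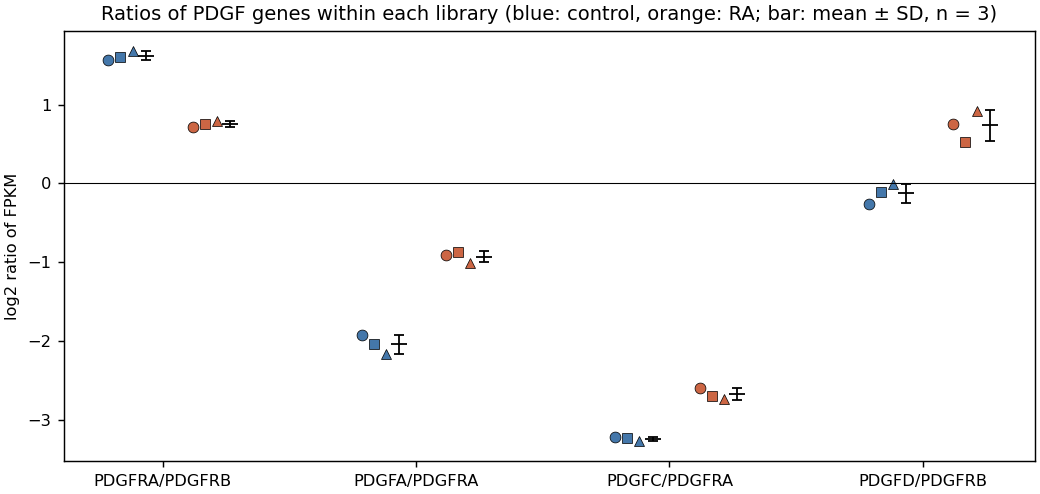
Log2 ratios of FPKM between PDGF genes within each library, for 4 pairs, with mean ± SD (n = 3). Control libraries (blue) and RA libraries (orange) do not overlap in any pair; PDGFRA/PDGFRB is lower in RA and the ligand-to-receptor ratios are higher.

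Summed over A, C and D chains, ligand transcripts were at 27.5, 27.9 and 29.2 FPKM across the control replicates and at 43.1, 34.4 and 42.3 FPKM across the RA replicates. PDGFD made up 46.1 ± 2.74% of this sum in control and 59.2 ± 4.05% in RA. The share of PDGFC was 16.3 ± 0.112% in control and 9.37 ± 0.709% in RA. Summed receptor transcripts were at 57.8 ± 2.25 FPKM in control and 37.9 ± 2.45 FPKM in RA. In control the receptor sum was above the ligand sum in every library, and in RA this order held only in replicate 2.

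The proteases that activate the latent ligands moved in different directions. PLAT, the tissue plasminogen activator, which can activate PDGFC, was at 278 ± 7.29 FPKM in control and fell to 153 ± 10.2 in RA (log2 change -0.86, limma adjusted p = 0.000133). PLAU, the urokinase plasminogen activator, which can activate PDGFD, rose in RA from 89.5 ± 5.26 to 123 ± 12.1 FPKM (0.46, limma adjusted p = 0.00668). ST14, the membrane protease matriptase, which can also process PDGFD, was at 1.39 ± 0.110 and 1.11 ± 0.144 FPKM (limma adjusted p = 0.197). FURIN, which cuts the A and B precursors, was at 46.8 ± 1.60 and 48.2 ± 2.40 FPKM (limma adjusted p = 0.639). PCSK6, a related convertase, fell from 73.1 ± 4.98 to 32.5 ± 1.30 FPKM (-1.15, limma adjusted p = 4.00e-05). FURIN and ST14 were named for their role and not by the rule for named genes.

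Of 15 genes that process or bind PDGF ligands, 2 rose and 3 fell, or 33.3% called beside 25.9% of all genes. The median log2 change was 0.05, beside -0.01 over all genes tested. SPARC, a matrix protein that binds PDGF B chains, fell from 4629 ± 296 to 3034 ± 119 FPKM (limma adjusted p = 0.00387). A2M, the protease inhibitor alpha-2-macroglobulin, which carries PDGF in plasma, had a log2 change of 0.32 (limma adjusted p = 0.0133). Its adjusted p was 0.0570 without RA replicate 1, 0.0536 when control replicate 1 was left out and 0.0625 when control replicate 2 was, so the count of rises was then 1. It was 4 without RA replicate 2 and 6 after a correction for gene length. PDGFRL, a receptor-like gene that lacks a kinase domain, went from 2.04 ± 0.309 to 2.66 ± 0.261 FPKM (limma adjusted p = 0.113).

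Among 41 genes that act directly below the receptors, 4 rose and 6 fell, which is 24.4% called beside the background of 25.9%. SRC, a tyrosine kinase that docks on activated receptors, rose in RA from 12.4 ± 0.0897 to 19.6 ± 0.875 FPKM (limma adjusted p = 0.000587). VAV2, a guanine nucleotide exchange factor, rose from 8.61 ± 0.728 to 14.5 ± 1.62 (limma adjusted p = 0.00251). MAP2K1, a kinase of the ERK cascade, fell (log2 change -0.52, limma adjusted p = 0.00187). Its paralog MAP2K2 (0.15, limma adjusted p = 0.236), added after values were seen, was not called.

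Further called genes of this list, also named after their values were seen, were STAT3 (log2 change 0.28) and STAT5A (0.40), both higher, and PIK3R1 (-0.73), SOS1 (-0.82) and FYN (-0.19), all lower. Some of these calls were lost under other settings. SOS1 was not called by edgeR (adjusted p = 0.0725) or with limma without trend (0.0505), with no filter (0.109) or with a pseudocount of 0.1 (0.0554). FYN was not called after the length correction (0.107) or with limma without trend (0.0752). Without control replicate 2 the limma adjusted p was 0.0503 for PIK3R1, 0.128 for SOS1 and 0.110 for FYN, and the count of falls was 3. Without control replicate 3 it was 0.0535, 0.136 and 0.104, again with 3 falls. STAT5A had adjusted p-values from 0.0501 to 0.0684 without RA replicate 1 or any control replicate, SOS1 had 0.0623 without RA replicate 1 and 0.0922 without control replicate 1, and FYN had from 0.0733 to 0.119 without each library but RA replicate 2. The adaptor genes GRB2 (log2 change 0.04) and SHC1 (0.08) were not called.

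Negative regulators of the receptors had 5 falls and 0 rises among 25 genes. That is 20.0% called, below the 25.9% of all genes called in either direction but above the 12.0% called lower. The count of falls also changed between settings, as given below, so the falls are not read as a result about the list. At an unadjusted limma p under 0.05, 2 of them were higher, and 1 was called higher by edgeR, by DESeq2, with limma after a correction for gene length, median-ratio or quantile scaling or a filter of mean FPKM 1, and without RA replicate 2. SPRY2, a feedback inhibitor of receptor kinase signalling, fell from 112 ± 10.0 to 58.8 ± 2.35 FPKM (limma adjusted p = 0.000195). The ERK phosphatases DUSP4, from 99.3 ± 2.11 to 58.5 ± 8.84 FPKM, and DUSP5, from 203 ± 14.9 to 149 ± 9.04, also fell (limma adjusted p = 0.00192 and 0.00486). SOCS3 (log2 change -0.22, limma adjusted p = 0.0307) and PTPN12 (-0.69, 0.0314), a phosphatase named after its values were seen, were less stable. SOCS3 had adjusted p-values from 0.0505 to 0.108 without each library but RA replicate 2, and PTPN12 had 0.0741, 0.111 and 0.0958 without control replicates 1, 2 and 3. SOCS3 also had 0.0584 with limma without trend, and PTPN12 had 0.0516 by edgeR and 0.0796 with no filter on low values. The count of falls was 3 without each control replicate. The ubiquitin ligase CBL, which sends activated receptors to degradation, was at 2.24 ± 0.161 and 1.75 ± 0.505 FPKM and was not called (limma adjusted p = 0.235).

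Genes that PDGF induces early in fibroblasts moved in both directions, with 10 falls and 4 rises among 25 tested. The median log2 change was -0.24, beside -0.01 over all genes, and 56.0% were called, beside 25.9% of all genes (13.9% higher and 12.0% lower). CCND1, the G1 cyclin D1, fell from 31.3 ± 0.737 to 14.6 ± 0.434 FPKM (limma adjusted p = 3.71e-05). The kinase gene SGK1 fell from 53.3 ± 3.33 to 25.5 ± 0.524 and the AP-1 subunit JUN from 443 ± 34.0 to 255 ± 9.36 (limma adjusted p = 4.85e-05 and 0.000325). CCL2, a monocyte-attracting chemokine, went the other way, from 161 ± 26.6 to 454 ± 16.0 FPKM (limma adjusted p = 0.000111). FOS (log2 change -0.25), EGR1 (0.07) and MYC (-0.08), named after their values were seen, were not called (limma adjusted p = 0.0782, 0.649 and 0.275). The count of rises was 2 when RA replicate 1, control replicate 2 or control replicate 3 was left out. Most of these genes also answer to other growth factors and to handling of cells, and what moved them was not tested.

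**Figure D4:**
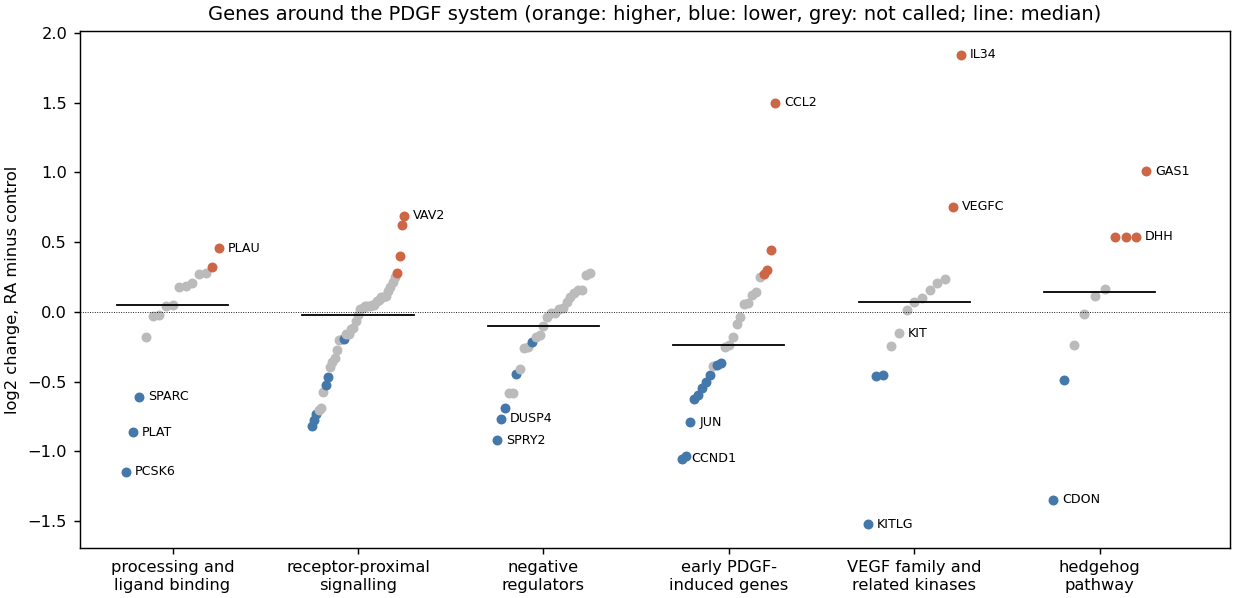
Log2 change in RA against control of each tested gene in 6 lists around the PDGF system, coloured by call, with the median of each list as a line. The early PDGF-induced genes have 10 falls and 4 rises, and in the processing list PLAU lies above 0 and PLAT below.

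PDGFRA, KIT and KDR encode related receptor kinases in neighbouring positions, as do PDGFRB and CSF1R. KIT, the stem cell factor receptor, starts 380894 bases beyond PDGFRA on chromosome 8 and was at 23.7 ± 2.48 and 21.2 ± 2.30 FPKM (limma adjusted p = 0.305). KDR, a VEGF receptor, was at 2.60 ± 0.109 and 2.05 ± 0.147 FPKM (limma adjusted p = 0.0876), and was called lower by edgeR (adjusted p = 0.0456) and DESeq2 (0.0180). CSF1R, the macrophage colony-stimulating factor receptor 25442 bases from PDGFRB on chromosome 2, was at 2.35 ± 0.643 and 2.94 ± 0.775 FPKM (limma adjusted p = 0.389). FLT1 and FLT4, the other VEGF receptors, were at 1.53 ± 0.0314 and 0.526 ± 0.0684 FPKM in control and were not called, and FLT3 was under 0.5 FPKM in every library. Whether the change of PDGFRA differed from those of KIT, KDR, CSF1R, FLT1 and FLT4 was not tested.

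Of 13 tested genes in the list of VEGF and class III relatives, 2 rose and 3 fell by limma, or 38.5% called beside 25.9% of all genes. The 5 called genes encode ligands. IL34, a ligand of CSF1R, rose in RA from 5.83 ± 0.242 to 23.6 ± 2.47 FPKM (limma adjusted p = 1.90e-05). VEGFC rose from 8.64 ± 0.688 to 15.2 ± 0.670 (limma adjusted p = 0.000637) and VEGFA fell from 40.7 ± 3.33 to 29.4 ± 1.90 (0.00611). VEGFD fell from 1.03 ± 0.0899 to 0.480 ± 0.0440 FPKM (limma adjusted p = 0.00583). It reached the filter of mean 0.5 FPKM only through control, where it is high, so its place among the 3 falls is not read as support. KITLG, the ligand of KIT, fell from 6.41 ± 0.489 to 1.70 ± 0.959 FPKM (limma adjusted p = 0.00401). VEGFB, at 36.7 ± 4.02 FPKM in control, CSF1, at 20.4 ± 0.867, and PGF, at 1.70 ± 0.321, were not called.

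Of the rows with a symbol beside or inside the family genes, CASP1 was the 1 called by limma. In the coordinates of the deposited table, whose genome build the sources used here do not name, PDGFRA lies on chromosome 8, 40966568 to 41021440, on the plus strand, and its left neighbour with a symbol, GSX2, was at 0.233 ± 0.0781 FPKM in control. PDGFD lies on chromosome 9, 34388636 to 34621227, on the minus strand, and its left neighbour DYNC2H1 was not called (limma adjusted p = 0.643). Its right neighbour CASP1, an inflammatory caspase 566839 bases away, went from 0.154 ± 0.109 FPKM, on 8, 9 and 21 reads, to 1.05 ± 0.143 FPKM in RA. It reached the filter of mean 0.5 FPKM only through RA, where it is high, so its call is not read as support. PDGFC (chromosome 8, 45579065 to 45808789), PDGFA (chromosome 3, 296399 to 322967) and PDGFRB (chromosome 2, 151155753 to 151192818) lie on the minus strand. Their tested neighbours CTSO, FAM20C, PRKAR1B and CSF1R were not called by limma (CTSO was called higher by DESeq2, adjusted p = 0.0340), while GLRB and CDX1 were too low to be tested.

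Hedgehog signalling is another route by which Sertoli cells act on interstitial cells, and DHH, its testis ligand, rose in RA from 14.4 ± 1.41 to 21.3 ± 1.45 FPKM (limma adjusted p = 0.00454). Of 10 tested hedgehog genes, 4 rose and 2 fell, or 60.0% called beside 25.9% of all genes. GAS1, a surface co-receptor, rose in RA from 9.95 ± 1.68 to 20.9 ± 0.666 FPKM, and CDON, another co-receptor, fell from 11.5 ± 1.54 to 3.91 ± 0.390 (limma adjusted p = 0.000645 and 0.000201). SUFU, an inhibitor of the pathway, rose (log2 change 0.54, limma adjusted p = 0.00232). The receptor gene PTCH1 (-0.49) was also called. SHH, another hedgehog ligand, went from 0.343 ± 0.135 to 0.942 ± 0.148 FPKM and reached the filter of mean 0.5 FPKM only through RA, so its place among the 4 rises is not read as support. GLI1 was too low to be tested, at 0.459 ± 0.0585 and 0.475 ± 0.00340 FPKM.

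Genes of like pattern were sought as the protein-coding genes whose log2(FPKM + 1) values, centred over the 6 libraries, differed least from those of a family gene, out of 12188 candidates. For PDGFRA these were CALU, IRS1 and TACC2, with root mean square differences of 0.035, 0.038 and 0.040 on the log2 scale. IRS1, an adaptor of insulin and IGF receptors, fell from 15.0 ± 0.261 to 7.98 ± 0.330 FPKM, and CALU, a calcium-binding protein of the secretory pathway, from 185 ± 3.57 to 103 ± 8.55. For PDGFD they were C1H15orf52, UBE2H and SULF1, at 0.066, 0.074 and 0.081. SULF1, an enzyme that trims heparan sulfate, went from 7.38 ± 0.707 to 12.7 ± 1.83 FPKM. PDGFA was closest to ZSWIM4, OPTN and HSPA2, and PDGFRB to MOCS2, DNAJC7 and SRSF5. SLC1A3, a glutamate transporter, was among the 3 nearest to PDGFC. These are descriptions over 6 libraries, 3 with RA and 3 with solvent.

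Which cells carried the PDGF transcripts was not measured, and markers of several testis cell types were present. The summed FPKM of 15 Sertoli cell markers was between 10204 and 10802 in control and between 10112 and 10867 in RA. For 14 germ cell markers it was between 264 and 268 in control and between 213 and 225 in RA, with none of them at 0. Most of the Sertoli sum was CLU, clusterin, at 9242 ± 233 FPKM in control. The germ cell RNA helicase DDX4 fell from a control level of 7.10 ± 0.374 FPKM (log2 change -0.43, limma adjusted p = 0.0113). DAZL, a germ cell RNA-binding protein, was at 19.0 ± 0.887 and 15.7 ± 1.49 FPKM (limma adjusted p = 0.0571). DDX4 and DAZL were not picked by the rule for named genes. STRA8, which that rule does pick, was the 1 germ cell marker called higher. Control libraries held 1.01 ± 0.330 FPKM of STRA8 and RA libraries 3.29 ± 0.337 (limma adjusted p = 0.00126). These values do not tell what share of the cultures was spermatogonia. Germ cell markers had 6 falls and 1 rise among 14, and Sertoli markers 8 falls and 4 rises among 15, or 50.0% and 80.0% called beside 25.9% of all genes.

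Lists for cells that are known to carry PDGF receptors were also counted, beside 13.9% of all genes called higher and 12.0% called lower. The share called was 75.0% for myoid and smooth muscle, 72.7% for fibroblast, 55.6% for interstitial and Leydig progenitor and 28.6% for pericyte genes, and each of these 4 lists had more rises than falls. Of 12 peritubular myoid and smooth muscle genes 8 rose and 1 fell, and their sum was between 644 and 720 FPKM in control and between 1565 and 1838 in RA. Of 11 fibroblast genes 6 rose and 2 fell, with sums from 940 to 1092 in control and from 1276 to 1368 in RA. Of 9 tested interstitial and Leydig progenitor genes 3 rose and 2 fell, with sums from 78.8 to 87.8 in control and from 78.8 to 80.1 in RA. In that list the orphan receptor NR2F2 was at 4.57 ± 0.645 and 5.34 ± 0.697 FPKM (limma adjusted p = 0.296), TCF21 rose from 3.21 ± 0.450 to 5.62 ± 0.0879 (0.00339), and NES fell from 17.8 ± 0.836 to 9.10 ± 0.593 (0.000215).

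Of 9 tested Leydig cell genes 2 rose and 3 fell, or 55.6% called beside 25.9% of all genes, with sums from 598 to 632 in control and from 661 to 729 in RA. CYP11A1 rose from 104 ± 2.56 to 159 ± 3.78 FPKM and CYB5A from 49.6 ± 3.11 to 97.8 ± 14.0 (limma adjusted p = 0.000262 and 0.000654). Among the 3 falls, HSD17B3 went from 14.0 ± 2.36 to 0.827 ± 0.326 FPKM (limma adjusted p = 2.56e-05). HSD3B1 fell from 82.3 ± 7.18 to 57.9 ± 5.47 FPKM (limma adjusted p = 0.00668). The steroid hydroxylase CYP17A1, which defines androgen-making Leydig cells, was under 0.5 FPKM in every library. Pericyte genes had 2 rises and 0 falls among 7 tested by limma, 0 were lower at an unadjusted p under 0.05 or by edgeR or DESeq2, and 4 rises were called without RA replicate 2. Their sum, from 24.1 to 24.9 in control and from 80.1 to 87.0 in RA, was mostly ANPEP, at 68.1 ± 2.88 FPKM in RA. Endothelial markers summed to between 53.4 and 55.2 in control and between 53.3 and 59.3 in RA, with 2 rises and 2 falls among 11 tested (36.4% called, beside 25.9% of all genes) and TEK and TIE1 under 0.5 FPKM in every library. The count of rises was 1 when RA replicate 2, RA replicate 3 or any control replicate was left out, by edgeR, after the length correction and with no filter on low values. Macrophage markers summed to between 72.0 and 77.5 in control and between 79.2 and 111 in RA, with 4 rises and 0 falls among 11 (limma, again 36.4% called); 0 were lower at an unadjusted p under 0.05, by edgeR or by DESeq2, and 1 was without RA replicate 3. No listed marker was at 0 in all libraries, and the part of changed cell composition in the PDGF values was not tested.

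**Figure D5:**
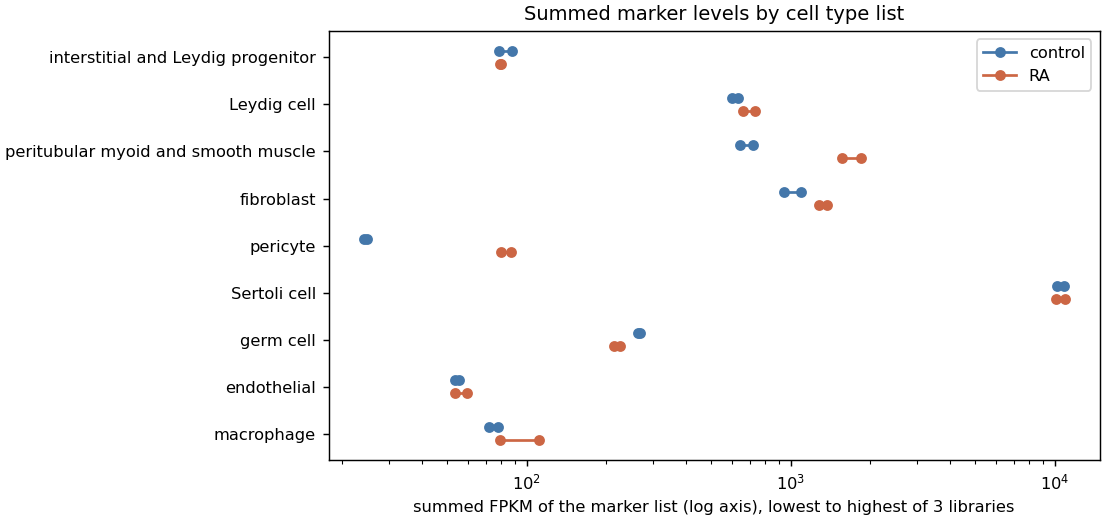
Summed FPKM of 9 cell type marker lists on a log axis, drawn from the lowest to the highest of 3 libraries in each group. Sertoli cell markers have the highest sums in both groups, and myoid and smooth muscle markers go from 644 to 720 in control up to 1565 to 1838 in RA.

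RA replicate 2 resembled its group least, with a mean correlation of 0.984 to its group across genes, against 0.991 and 0.989 for RA replicates 1 and 3 and at least 0.994 for the control libraries. It held the lowest RA value of PDGFC, PDGFD, PDGFRA and PDGFRB. Without it the log2 change was -0.80 for PDGFRA, 0.24 for PDGFA, -0.20 for PDGFC and 0.04 for PDGFRB. After a correction of each library for gene length the changes were -0.73 for PDGFRA (limma adjusted p = 7.70e-05) and 0.86 for PDGFD (limma adjusted p = 0.000962), with lengths of 6327 and 4181 bases. It left PDGFA at 0.14 (limma adjusted p = 0.227) and PDGFC at -0.15 (0.265).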

How the data were processed

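RNA-seq values of 3 RA and 3 control libraries, grouped by their titles, were used. For the aligner, counting tool, strand setting, genome build and statistical test of the authors, the answer is not given in the sources used here. Per the file headers, the authors deposited FPKM per gene with gene length and coordinates, and whole-number counts, a log2 fold change, a p-value and an FDR for the 4377 genes they list as changed. Whole reads (within 0.05) were recovered from FPKM, length and library total for 99.8% to 99.9% of non-zero values; 42 genes that did not were left out of count tests. Chromosome, start and end of all 5 genes found were the same in the RefSeq table of the Sscrofa11.1 assembly. No sequence was used.

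The 14567 genes averaging 0.5 FPKM or more were tested for group with limma 3.58.1 (R 4.3.3) and a variance trend, on log2(FPKM + 1), with p-values adjusted over all of them. Ratios used an exact permutation test (scipy 1.17.1). On simulated data for this comparison (14538 genes), limma recovered 100% of 200 genes changed 2-fold and called 0.119% of the others. The simulated counts had 1 fixed dispersion (spread between libraries) of 0.01 for every gene and no outlying library. These shares therefore check the fit and do not give its power or rate of false calls on the real libraries. Alternatives were pseudocounts of 0.1 and 0.5, no filter, a filter of mean FPKM 1, median-ratio and quantile scaling, limma without trend, a block for the replicate number, leaving out each library, edgeR 4.0.16 and DESeq2 1.42.0 on recovered reads, and a lowess correction for gene length (span 0.3). Members, lists and tests were chosen with earlier results of these data known. The rule for named genes takes the 6 listed genes, up to 4 called genes of smallest p per list, the VEGF and class III list, the 3 genes nearest in pattern to each family gene, and neighbouring rows; of the marker lists only some such genes are named. Some genes chosen this way are not reported here. CCN1, CCN2 and HAS2 were matched to the rows CYR61, CTGF and SHAS2, and CYP26B1 to the only row with that best human match.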

Additional observations from a re-analysis of the deposited data

How the results depend on the processing

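PDGFRA was called lower and PDGFD higher under all 17 alternatives, with log2 changes from -0.88 to -0.73 and from 0.72 to 0.96 and adjusted p-values from 2.48e-15 to 0.00236 and from 3.05e-06 to 0.0241. PDGFC and PDGFRB were not called under any of them, with adjusted p-values of at least 0.0545 and 0.353. PDGFA was called in 1, without RA replicate 2, with a log2 change of 0.24 (0.18 to 0.25 over the 6 fits that leave out a library), so the count of family genes called higher was 1 or 2 over those fits. The 4 ratios kept their direction under 9 alternatives each, with exact permutation p-values of 0.1, or 0.2 without 1 library and 0.25 with replicates paired, which are the smallest those designs allow. Over all genes, leaving out a library gave 1202 to 2258 higher and 1005 to 2256 lower calls. The replicate numbers did not pair the libraries (correlations of deviations -0.214, -0.086 and 0.34 for numbers 1, 2 and 3, with control replicate 1 closest to RA replicate 2); with the replicate number as a block, 1610 genes were called higher and 1405 lower, and PDGFRA (adjusted p = 0.00179) and PDGFD (0.00914) remained called. The block lost the calls of SOCS3 (adjusted p = 0.0716), PTPN12 (0.0505) and FYN (0.0866), and took the falls among negative regulators from 5 to 3 and the rises among endothelial markers from 2 to 1. Of 1814 alternative values of 107 other named genes, 78 lost a call, 11 gained one and 0 reversed. With 3 libraries per group, permutation of single genes cannot go below p = 0.1.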
